A study of Homo sapiens with 4 samples.

Results

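Levels of 10 heat shock chaperone genes were followed in single cells of the human lung cancer line H1299 and the human colorectal cancer line HCT116. The genes were HSPA1A, HSPA1B, HSPA2, HSPA5, HSPA8, HSPB1, HSP90AA1, HSP90AB1, DNAJB1 and HSPH1. They were chosen by symbol, with earlier results of these data known. All 10 were found among the 40877 gene names that stand for a single gene, of 43296 names in all. The study asked how cells change when epigenetic silencing is released, with transposable elements (TE) as its main readout. Cells of each line received either the solvent DMSO or 2 compounds together, called DAC+SB here. DAC, or decitabine, blocks DNA methyltransferases and was present at 500 nM for 72 h. SB939 blocks histone deacetylases and was present at 500 nM for 18 h. Cells were at passage 5 to 10, and for DAC+SB the medium with its compound was renewed each 24 h. Cells given DAC+SB are called treated and those given DMSO control. How long the control cells were kept in DMSO was not given in the sources used here. Each combination of line and treatment was 1 library, so no difference below has a replicate check and no p-value was computed.

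Chaperones bind unfolded proteins, prevent their aggregation and help them fold. HSP70 proteins (gene names beginning with HSPA) and HSP90 proteins use ATP for this, J-domain proteins such as DNAJB1 deliver clients to HSP70, and HSPH1 exchanges its nucleotide. When unfolded proteins build up in the cytosol, heat shock factor HSF1 binds heat shock elements in promoters and raises the inducible members, while unfolded proteins in the endoplasmic reticulum (ER) raise HSPA5 through ER stress elements. Acetylation of HSP90, controlled by HDAC6, is known to affect its work, and cancer cells often carry high levels of chaperones.

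The promoters of the members differ in these elements. The sequences are from RefSeq (GRCh38.p14), and each is 150 bases ending just before a RefSeq transcription start, 5′ to 3′ on the gene's strand. They are shown because HSPA1A and HSPA1B had almost the same promoter and, in HCT116 but not in H1299, clearly different ratios, HSPA2 had the highest ratio of the 10 in both lines, and the others stand for the heat shock and ER groups. Capitals mark heat shock elements (GAANNTTC or TTCNNGAA, alone or run together as 3 alternating units), the ER stress element (CCAAT, 9 bases, CCACG) and the TATA box TATAAA. They lie at chr6:31815393-31815542 (plus strand, HSPA1A), chr6:31827588-31827737 (plus, HSPA1B), chr14:64540591-64540740 (plus, HSPA2), chr19:14518398-14518547 (minus, DNAJB1), chr14:102087045-102087194 (minus, HSP90AA1) and chr9:125241344-125241493 (minus, HSPA5).
HSPA1A: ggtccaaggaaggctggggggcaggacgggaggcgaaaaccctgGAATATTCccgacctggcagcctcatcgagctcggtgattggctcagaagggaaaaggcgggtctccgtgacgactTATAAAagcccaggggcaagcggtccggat
HSPA1B: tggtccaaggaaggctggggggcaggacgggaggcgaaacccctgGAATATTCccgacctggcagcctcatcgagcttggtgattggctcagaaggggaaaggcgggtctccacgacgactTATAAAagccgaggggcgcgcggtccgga
HSPA2: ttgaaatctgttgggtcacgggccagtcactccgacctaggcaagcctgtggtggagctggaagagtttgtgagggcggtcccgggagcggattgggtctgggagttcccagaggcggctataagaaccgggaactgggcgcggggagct
DNAJB1: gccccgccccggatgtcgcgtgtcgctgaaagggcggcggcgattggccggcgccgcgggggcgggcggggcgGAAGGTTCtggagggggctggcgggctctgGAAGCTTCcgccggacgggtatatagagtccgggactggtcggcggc
HSP90AA1: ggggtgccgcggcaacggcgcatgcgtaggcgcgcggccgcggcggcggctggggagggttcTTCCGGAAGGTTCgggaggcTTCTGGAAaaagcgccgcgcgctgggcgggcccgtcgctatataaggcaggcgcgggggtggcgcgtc
HSPA5: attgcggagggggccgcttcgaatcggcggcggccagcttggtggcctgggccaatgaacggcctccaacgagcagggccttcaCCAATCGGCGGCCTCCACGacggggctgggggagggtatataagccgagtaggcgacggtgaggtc

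Motifs were searched on both strands of the 250 bases before each start, in 15 windows of the 10 members and in 35116 windows of all genes. An element of 3 units stood in 0.441% of all windows and in a window of 3 of the 10 members, HSPA8, HSP90AA1 and HSP90AB1. An element of 2 units, which every 3-unit element also contains, stood in 11.6% of all windows and in a window of 7 members. Some members had several windows, so these counts of members and shares of windows are in unlike units. HSPA1A and HSPA1B each held 1 element of 2 units, 106 and 105 bases before the start, and 1 TATAAA, which 10.7% of all windows held. DNAJB1 held 2 elements of 2 units and HSPB1 held 1. The ER stress element was found in 0.0740% of all windows and, of the members, in HSPA5 alone, 66 bases before the start. HSPA2 and HSPH1 had none of these elements in their window. CpG dinucleotides numbered 12 in the HSPA1A window, 13 in HSPA1B, 18 in HSPA2 and 14 in HSPH1, against a median of 11 over all windows. Windows of the other members held 14 (1 of HSP90AB1) to 44 (1 of HSP90AA1), so all 15 lay above that median. A match describes the letters only, and no binding or methylation was measured.

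The 4 libraries held 3578 to 4327 cells and 38927267 to 64524196 gene and TE counts each. The median count per cell was 15784.5 to 17369.5 in 3 libraries and 8449 in treated HCT116, which also had the highest median mitochondrial share (18.6%, against 8.33% to 15.8%). Between 60 and 71 cells per library carried a barcode that another library also held. Of 10 H1299 markers the summed level was 3265 CPM (counts out of 1000000 gene and TE counts) in control H1299 and 278 in control HCT116. Of 10 HCT116 markers it was 0.248 in control H1299 and 109 in control HCT116, where 3 of them, CDH17, CDX1 and GPA33, had no count. In treated H1299 these sums were 1498 and 11.0, and in treated HCT116 they were 341 and 65.4. The sums rest on few genes. VIM held 147273 of the 210679 H1299 marker counts in control H1299, and EPCAM 5054 of the 6816 HCT116 marker counts in control HCT116. The H1299 markers FSTL1 and TGFB1I1 had 275 and 293 counts in control H1299 but 597 and 371 in control HCT116.

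As a group the 10 members took up 4903 CPM in control H1299, 5729 in treated H1299, 4377 in control HCT116 and 4125 in treated HCT116. A ratio here is the DAC+SB level over the DMSO level of the same line, and a gene was called at a 2-fold difference if its higher library had 100 counts or more. In H1299, 1 of 10 members was at least 2-fold higher, HSPA2, where 18.3% of 14610 genes were. None was at least 2-fold lower in H1299, where 7.34% of genes were. In HCT116, HSPA1A and HSPA2 were at least 2-fold higher, 2 of 10 where 16.2% of 13539 genes were. HSPB1 and HSPH1 were at least 2-fold lower in HCT116, 2 of 10 where 20.0% of genes were. Shares of genes depend on the count limit. Among genes with 1000 counts or more in the higher library, which all 10 members reached, 6.36% in H1299 and 6.16% in HCT116 were at least 2-fold higher, and 8.79% and 23.6% were lower. Counts of 0 to 2 of 10 say little beside such shares, so the members are described one by one. The median log2 ratio of the members was 0.05 in H1299, where all genes had -0.07, and -0.01 in HCT116, where all genes had -0.23. Genes with 1000 counts or more had medians of -0.24 in H1299 and -0.44 in HCT116.

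**Figure D1:**
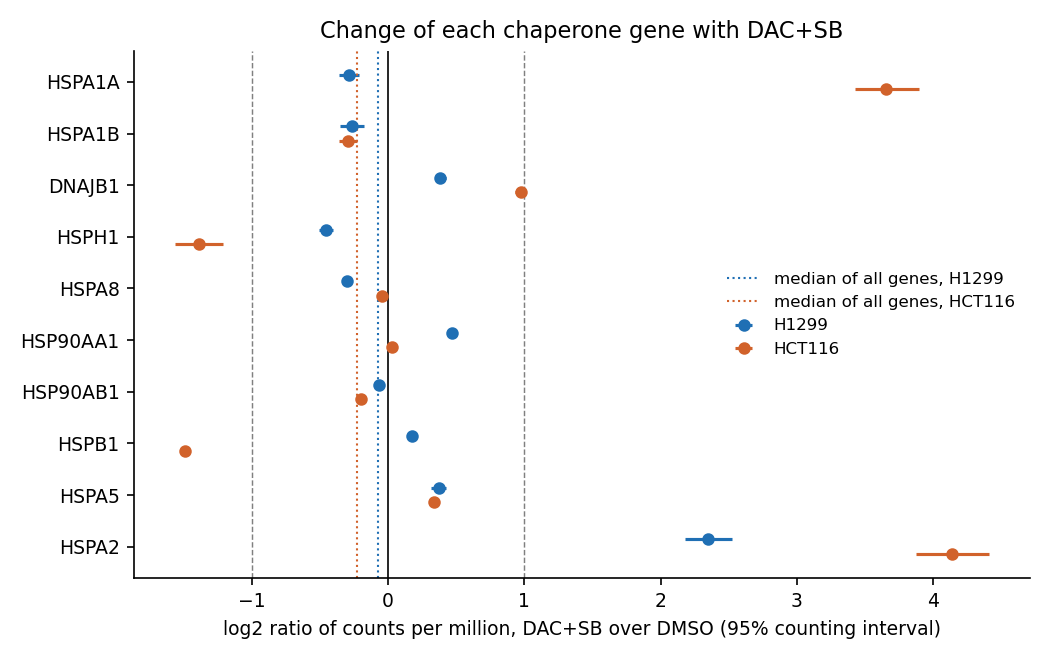
log2 ratio of CPM (DAC+SB over DMSO, horizontal axis) for each chaperone gene (vertical axis) in H1299 (blue) and HCT116 (orange), with 95% intervals that cover counting error only. Dotted lines mark the median of all genes and dashed lines a 2-fold difference. HSPA1A lies at -0.29 in H1299 and 3.66 in HCT116, and HSPA2 lies to the right in both lines.

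The inducible HSP70 genes HSPA1A and HSPA1B encode nearly the same protein and sit side by side on chromosome 6 (GENCODE v29, GRCh38: HSPA1A at chr6:31815464-31817946, HSPA1B at chr6:31827735-31830255, both on the plus strand). HSPA1A had 53.1 CPM in control H1299 (3424 counts), 43.5 in treated H1299 (2714 counts), 2.67 in control HCT116 (167 counts) and 33.7 in treated HCT116 (1310 counts). The HCT116 control library stood far below the other three. The HCT116 ratio was 12.6-fold (95% counting interval 10.7 to 14.9), and 6.36% of genes had a higher one. In H1299 the log2 ratio was -0.29 (-0.36 to -0.21). HSPA1B had 37.2 CPM in control H1299, 30.9 in treated H1299, 88.8 in control HCT116 and 72.3 in treated HCT116. Its log2 ratio was -0.27 (-0.35 to -0.18) in H1299 and -0.30 (-0.36 to -0.23) in HCT116. There a mean over cells gave 0.03 and the feature without a number alone gave -0.79. The line difference in the ratio was 3.95 log2 units (3.70 to 4.19) for HSPA1A and -0.03 (-0.14 to 0.08) for HSPA1B.

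Over all features, the pair's total was lower with DAC+SB in H1299 and higher in HCT116, and its composition differed between the HCT116 libraries. The summed level of both genes was 90.3 CPM in control H1299, 74.4 in treated H1299, 91.5 in control HCT116 and 106 in treated HCT116. The log2 ratio of this sum was -0.28 (-0.33 to -0.22) in H1299 and 0.21 (0.15 to 0.27) in HCT116. HSPA1A made up 58.8% of the pair's counts in control H1299 (95% Clopper-Pearson interval 57.5% to 60.1%) and 58.4% in treated H1299 (57.0% to 59.9%). In HCT116 its share was 2.91% with DMSO (2.49% to 3.38%) and 31.8% with DAC+SB (30.3% to 33.2%). Reads of such similar genes can be assigned to the wrong copy. The coding parts are identical at 1922 of 1926 bases, while the leaders before them align at 87.9% identity. Of 50-base windows of the HSPA1A transcript, 75.0% also occur in HSPA1B, but only 2.80% of those that begin before the coding part do. Counts were read from the 5′ end of the RNA, and where each read fell was not analysed here. The table splits each gene into a feature without a number and numbered features, their meaning not given in the sources used here. In HCT116 the HSPA1A share was 2.96% with DMSO and 31.3% with DAC+SB over numbered features, and 2.80% and 33.5% over the feature without a number. The pair's total in HCT116 depended on the features. It went from 66.9 to 85.2 CPM over numbered features, but from 24.5 to 20.8 over the feature without a number. How far misassigned reads contribute was not tested.

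**Figure D2:**
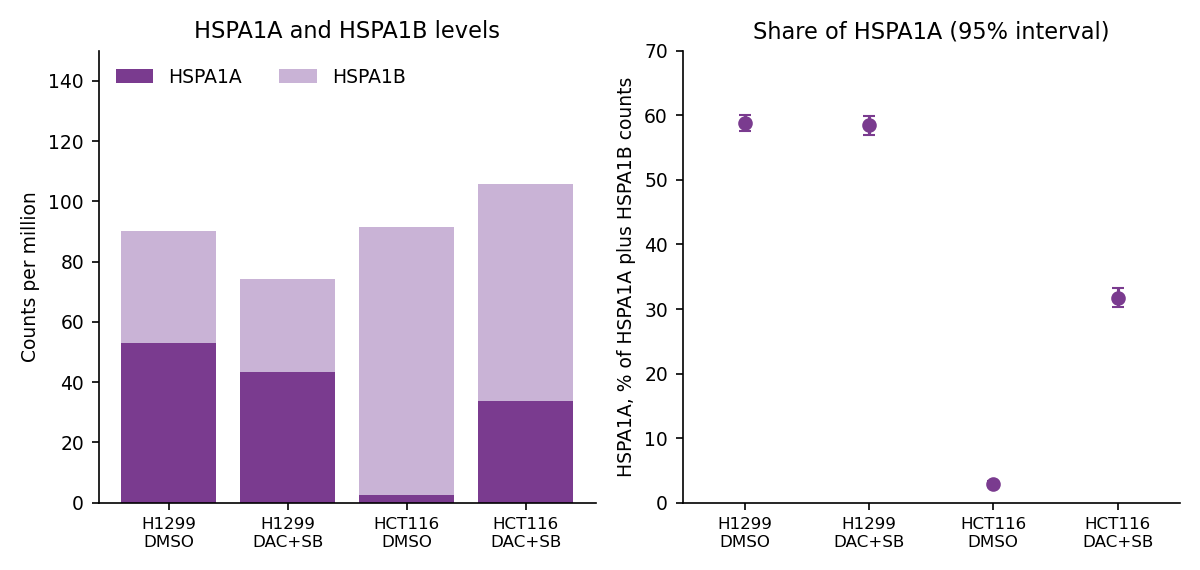
Left, CPM (vertical axis) of HSPA1A (dark) and HSPA1B (light), stacked, in the 4 libraries (horizontal axis). Right, HSPA1A as a percentage of the counts of both genes with 95% Clopper-Pearson intervals. The pair sums to between 74.4 and 106 CPM, while the HSPA1A share goes from 2.91% in HCT116 DMSO to 31.8% in HCT116 DAC+SB.

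Shares of cells were compared after each cell was thinned to 3300 counts, which left out 402 of 4327 treated HCT116 cells and none elsewhere. HSPA1A was detected in 12.9% of thinned control H1299 cells, 11.8% of treated H1299 cells, 0.820% of control HCT116 cells and 7.59% of treated HCT116 cells. Without thinning these shares were 41.8%, 36.1%, 4.07% and 15.1%. No cell type that lacks the gene is in the data, so the share that free RNA gives was not measured. HSPA1B was detected in 9.92%, 8.70%, 19.0% and 15.3% of thinned cells in the same order. Cells with an HSPA1B count held HSPA1A more often than cells without one in 3 libraries, where the 95% Clopper-Pearson intervals lay apart. The shares were 25.1% (20.6% to 29.9%) against 11.6% (10.5% to 12.8%) in control H1299 and 27.8% (23.0% to 33.0%) against 10.2% (9.23% to 11.3%) in treated H1299. In treated HCT116 they were 18.1% (15.1% to 21.4%) against 5.69% (4.92% to 6.53%). In control HCT116 they rested on 12 and 18 cells, and the intervals overlapped, at 1.72% (0.894% to 2.99%) against 0.608% (0.361% to 0.959%). The part of misassigned reads in these shares was not tested.

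A small set of treated HCT116 cells carried much of the HSPA1A signal. The 1% of cells with most HSPA1A counts held 34.9% of them in treated HCT116, 13.4% in control H1299 and 13.7% in treated H1299. In control HCT116, where 149 cells held only 167 counts, it was 32.9%. The highest single thinned treated HCT116 cell had 18 HSPA1A counts, against 5 in either H1299 library and 2 in control HCT116. When the 1% of cells with most HSPA1A and HSPA1B counts was left out of each library, the HCT116 log2 ratio of HSPA1A was 3.26 in place of 3.66. These cells were chosen by the same 2 genes. They held 176 thinned HSPA1A counts in treated HCT116 but 2 in control HCT116, so a lower ratio followed from the choice. That of HSPA1B was then -0.43 in place of -0.30, and the pair's sum was not computed without these cells.

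The other members were compared between that top 1% and the remaining cells of each library, at the thinned depth. HSPA1A and HSPA1B chose these cells, so their own values there are no result. In treated HCT116, the 40 top cells had a mean of 5.30 DNAJB1 counts against 1.07 in the other 3885 cells. The mean was 6.47 against 1.42 for HSPA8, 0.500 against 0.0242 for HSPH1, 2.08 against 0.662 for HSPB1 and 8.80 against 3.26 for HSP90AB1. All 8 other members had a higher mean in the top cells of that library, where 33.3% of genes with 100 counts or more in the library did, and 34.4% of genes with 1000 or more. All 8 also did in the 38 top cells of treated H1299, where 45.6% and 54.6% of genes did. In control H1299 it was 7 of 8, beside 45.0% and 51.5% of genes, and in control HCT116 7 of 8, beside 49.2% and 55.4%. Chaperone genes outside the members were mixed. In treated HCT116 the top cells had 0.862 times the mean of the others for HSPE1 and 0.997 for HSP90B1. For BAG3, HSPD1, DNAJA1 and CHORDC1 it was 1.58, 1.61, 1.63 and 1.29 times. Elsewhere only HSPE1 in treated H1299 (0.852) and control HCT116 (0.744) and CHORDC1 in control H1299 (0.558) were below 1. DNAJB1 was 1.62 times as high in the top cells of control H1299, 2.54 times in treated H1299, 3.21 times in control HCT116 and 4.97 times in treated HCT116. The top cells are not matched between libraries, since they held 3 to 8 counts of HSPA1A and HSPA1B together in control H1299, 3 to 7 in treated H1299, 3 to 13 in control HCT116 and 6 to 53 in treated HCT116. The 12 immediate early genes, which handling of cells also raises, summed to a mean of 23.9 counts in the top cells of treated HCT116 against 6.46 in the others. In the other 3 libraries that sum was lower in the top cells, at 1.06 against 1.21, 1.68 against 1.88 and 2.73 against 3.32. The G2 and M phase list was also higher in the top cells, 1.59 times in control H1299, 2.38 times in treated H1299 (a mean of 11.2 against 4.73), 1.65 times in control HCT116 and 1.12 times in treated HCT116. TE counts averaged 288 in the top cells of treated HCT116 against 190. They were lower in the top cells of the other 3 libraries, at 5.31 against 6.67 in control H1299, 72.2 against 102 in treated H1299 and 9.81 against 10.4 in control HCT116. The median depth before thinning was lower in the top cells of treated HCT116, 6845 against 9182. It was higher in those of the other 3, at 20158 against 17335, 17536 against 15752 and 19628 against 16217 in the same order. The part of handling, cell cycle, TE and depth in this pattern was not tested.

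**Figure D3:**
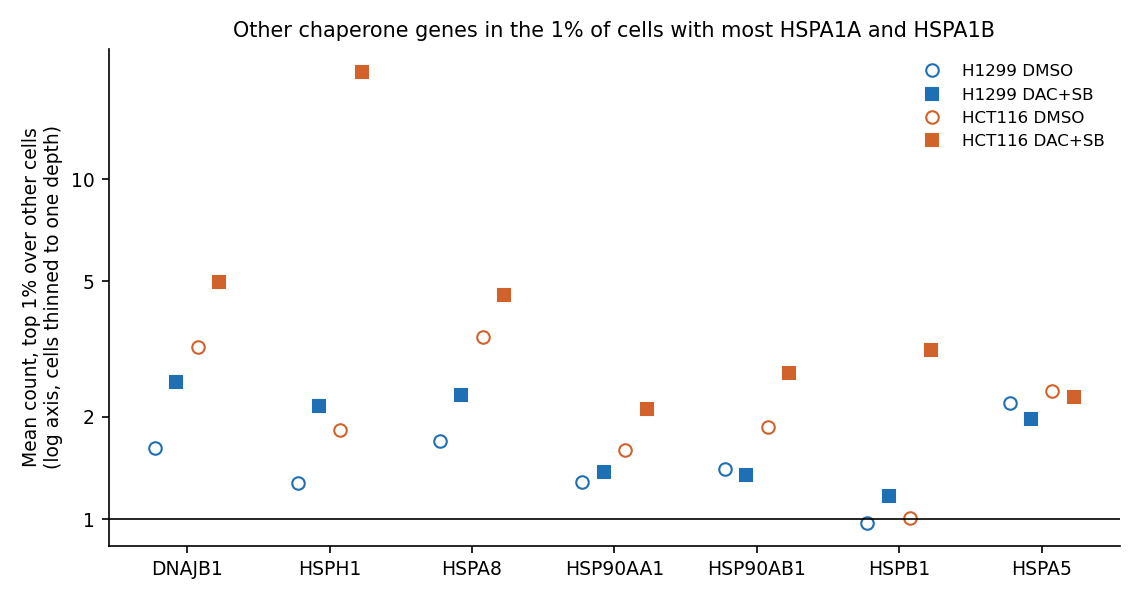
Mean thinned count in the 1% of cells with most HSPA1A and HSPA1B counts over that in the remaining cells (vertical axis, log scale) for 7 other chaperone genes (horizontal axis). Open circles are DMSO and filled squares DAC+SB, H1299 in blue and HCT116 in orange; each ratio rests on 36 to 40 top cells. HCT116 DAC+SB is the highest library for each gene shown but HSPA5, and reaches 20.7 for HSPH1, which had 20 counts in its top cells. HSPA2, not shown because its top cells held 0 to 20 counts, had 5.68 in H1299 DMSO, 2.83 in H1299 DAC+SB and 4.28 in HCT116 DAC+SB.

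DNAJB1, the J-domain partner of inducible HSP70 (chr19:14514770-14529770, minus strand), was higher in the DAC+SB library of both lines. It had 133 CPM in control H1299 and 173 in treated H1299, against 173 in control HCT116 and 338 in treated HCT116. The treated HCT116 library was the high one, and the other three lay close together. The log2 ratio was 0.38 (0.34 to 0.42) in H1299 and 0.97 (0.93 to 1.01) in HCT116, just inside the 2-fold line. It went past that line with TE counts left out of the denominator (1.05), with the median gene set to 0 (1.20), as a mean over cells (1.09) and without the 5% deepest cells (1.02). Over the feature without a number alone it was 0.50. DNAJB1 was detected in 36.5% of thinned control HCT116 cells and in 55.0% of treated HCT116 cells, and in 30.4% and 35.7% of H1299 cells, so its difference was spread over many cells.

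HSPH1, the nucleotide exchange factor of HSP70 also called HSP105 (chr13:31134974-31162388, minus strand), was lower in the treated library of both lines. Its level was 111 CPM in control H1299, 80.6 in treated H1299, 22.3 in control HCT116 and 8.50 in treated HCT116. Both H1299 libraries lay above both HCT116 libraries. The log2 ratio was -0.46 (-0.51 to -0.40) in H1299 and -1.39 (-1.57 to -1.21) in HCT116. A numbered feature of HSPH1 was listed in the DAC+SB libraries only, with 650 and 49 counts, and no numbered feature of any gene was listed below 10 counts. Without it the log2 ratios were -0.66 and -1.62. HSPH1 and its partner DNAJB1 thus stood on opposite sides of the control in both lines.

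HSPA8, the constitutive cytosolic HSP70 (chr11:123057489-123063230, minus strand), was lower in the treated library of H1299 and nearly level in HCT116. Its level was 736 CPM in control H1299, 597 in treated H1299, 454 in control HCT116 and 440 in treated HCT116. The log2 ratio was -0.30 (-0.32 to -0.28) in H1299. In HCT116 it was -0.05 (-0.07 to -0.02), and it depended on the processing, since setting the median gene to 0 gave 0.18 and the feature without a number alone gave -0.56. Over features without a number the median of all genes was itself lower, at -0.17 in H1299 and -0.45 in HCT116.

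The HSP90 pair had different ratios in H1299. HSP90AA1, the stress-responsive form (chr14:102080738-102139699, minus strand), had 2308 CPM in control H1299, 3200.0 in treated H1299, 1634 in control HCT116 and 1662 in treated HCT116. Treated H1299 was the highest library, with a log2 ratio of 0.47 (0.46 to 0.48), while the HCT116 ratio was 0.03 (0.01 to 0.04) and turned to -0.02 without the 5% deepest cells and to -0.45 over the feature without a number alone. HSP90AB1, the constitutive form (chr6:44246166-44253888, plus strand), had 866 CPM in control H1299, 828 in treated H1299, 1173 in control HCT116 and 1023 in treated HCT116. Its log2 ratio was -0.06 (-0.08 to -0.05) in H1299 and -0.20 (-0.21 to -0.18) in HCT116, values that became 0.0075 and 0.034 with the median gene set to 0. Over the feature without a number alone they were -0.19 and -0.83. HSP90AA1 in H1299 was 0.21 over the feature without a number alone, so most of its difference lay in the numbered feature, which went from 63996 to 104499 counts.

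HSPB1, the small heat shock protein HSP27, holds unfolded proteins without ATP (chr7:76302544-76304295, plus strand). It had 581 CPM in control H1299, 655 in treated H1299, 589 in control HCT116 and 210 in treated HCT116. The H1299 libraries and control HCT116 were close together and the treated HCT116 library was low. The HCT116 level with DAC+SB was 2.80 times lower than with DMSO (2.74 to 2.87), a log2 ratio of -1.49, and 90.9% of genes had a higher one. In H1299 the log2 ratio was 0.17 (0.15 to 0.19), and -0.15 over the feature without a number alone. The line difference was -1.66 (-1.70 to -1.62). HSPB1 was detected in 82.8% of thinned control HCT116 cells and 43.0% of treated HCT116 cells, against 79.8% and 80.8% in H1299. A second numbered feature of HSPB1 was listed in H1299 only, with 5658 and 4938 counts. Over all 12 alternatives the HCT116 log2 ratio stayed between -1.70 and -1.26.

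HSPA5, the ER-resident HSP70 known as BiP (chr9:125234853-125241330, minus strand), was slightly higher in both DAC+SB libraries. It had 74.0 CPM in control H1299, 95.7 in treated H1299, 239 in control HCT116 and 301 in treated HCT116. Both HCT116 libraries exceeded both H1299 libraries. The log2 ratio was 0.37 (0.32 to 0.43) in H1299 and 0.33 (0.30 to 0.37) in HCT116, or 0.25 and 0.10 over the feature without a number alone. The line difference of -0.04 had an interval of -0.10 to 0.03. Among 29 other ER chaperone and unfolded protein response genes, 1 was at least 2-fold higher and 0 lower in H1299 (median log2 ratio 0.02), beside 18.3% and 7.34% of all genes. In HCT116, 3 were higher and 4 lower, beside 16.2% and 20.0% of all genes, with a median of 0.10. CRELD2, an ER stress-inducible protein, was the highest in H1299 (19.4 against 53.3 CPM with DAC+SB) and had 32.6 and 72.5 in HCT116. DNAJB11, an ER J-domain partner of BiP, had the highest HCT116 ratio (1.57, from 44.0 to 131 CPM), and the sensor ERN1 had 1.28. In contrast SERPINH1, the collagen chaperone, had -2.35 in HCT116, TRIB3 had -1.97, and the transcription factor ATF4 had -1.32 there and -0.98 in H1299. The ER list therefore held genes on both sides.

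HSPA2, an HSP70 best known from male germ cells (chr14:64535905-64546173, plus strand), had the highest ratio of the 10 in both lines. It had 5.15 CPM in control H1299 (332 counts), 26.3 in treated H1299 (1639 counts), 2.03 in control HCT116 (127 counts) and 35.7 in treated HCT116 (1389 counts). Both treated libraries lay above both controls. The ratio was 5.10-fold (4.53 to 5.76) in H1299 and 17.6-fold (14.7 to 21.3) in HCT116. Even so, 9.77% of genes in H1299 and 5.95% in HCT116 had a higher ratio. HSPA2 was detected in 1.48% of thinned control H1299 cells, 7.65% of treated H1299 cells, 0.410% of control HCT116 cells and 10.4% of treated HCT116 cells. The 1% of cells with most HSPA2 counts held 11.6% of them in treated H1299 and 14.1% in treated HCT116, so this signal was less concentrated there than that of HSPA1A in treated HCT116. With the feature without a number alone, the log2 ratios were 2.17 in H1299 and 3.45 in HCT116, against 2.35 and 4.14.

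**Figure D4:**
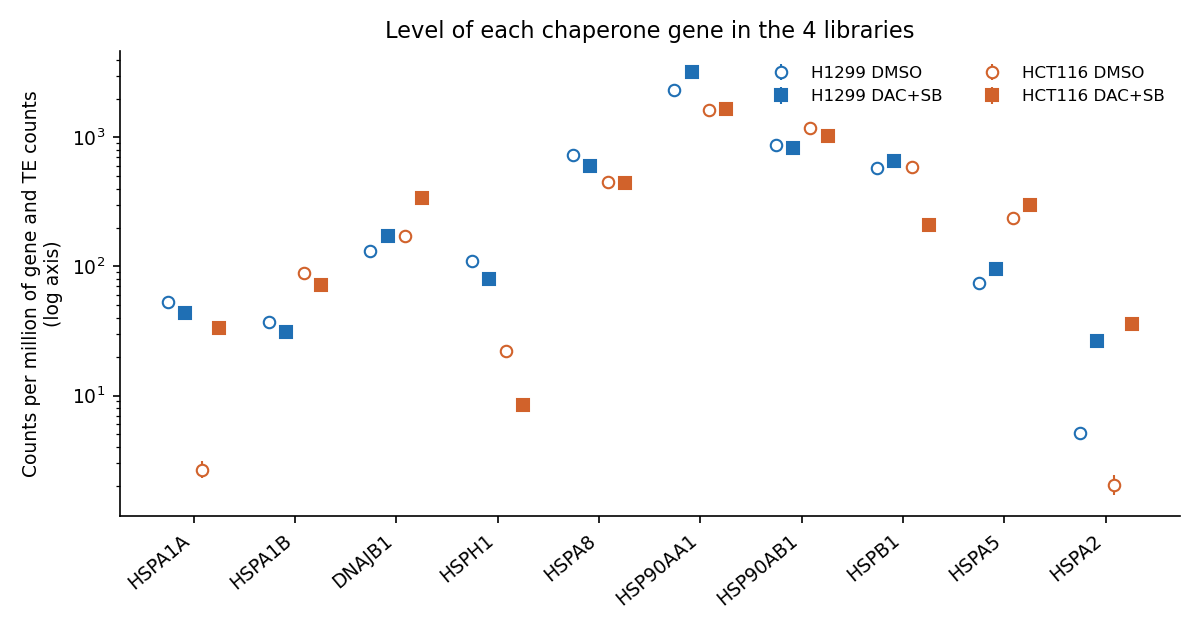
CPM (vertical axis, log scale) of each chaperone gene (horizontal axis) in H1299 (blue) and HCT116 (orange), DMSO as open circles and DAC+SB as filled squares, with 95% Poisson intervals that mostly lie within the symbols. HSPA1A is low in HCT116 DMSO alone (2.67), HSPB1 in HCT116 DAC+SB alone (210), and HSPA2 in both DMSO libraries (5.15 and 2.03).

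The lines also differed from each other under the same treatment, in comparisons that share their libraries with those above. With DMSO, 3 of 10 members were at least 2-fold higher in H1299 (HSPA1A, HSPA2 and HSPH1), where 20.5% of 13796 genes were, and 2 were lower (HSPA1B and HSPA5), where 15.2% were. HSPA1A was 19.9 times as high in H1299 (17.0 to 23.4) and HSPH1 4.97 times (4.70 to 5.27). With DAC+SB, HSPH1 and HSPB1 were at least 2-fold higher in H1299, where 25.4% of 14875 genes were, and HSPA1B and HSPA5 were lower, where 12.1% were. HSPA1A was then 1.29 times as high in H1299 (1.21 to 1.38). HSPA1B kept its place, 2.39 times higher in HCT116 with DMSO and 2.34 times with DAC+SB.

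Of the factors that drive the heat shock response, HSF1 was lower in both treated libraries. HSF1, the main activator, had 134 CPM in control H1299 and 90.3 in treated H1299, and 82.7 and 42.2 in HCT116, with log2 ratios of -0.57 and -0.97. HSF2, which can act together with it, stood at -0.11 (-0.24 to 0.02) in H1299 and at 0.40 (0.26 to 0.53) in HCT116 on the same scale. Of the 8 genes of this list, 0 were at least 2-fold higher and 2 lower in each line. Of all genes, 18.3% in H1299 and 16.2% in HCT116 were higher, and 7.34% and 20.0% lower. HSF4 and HSBP1L1 were the lower ones in both. Activation of HSF1 runs mainly through its protein, which was not measured.

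Other cytosolic chaperones and co-chaperones were described as a list of 47 genes. Of 36 with at least 100 counts in H1299, 3 were at least 2-fold higher and 2 lower, where 18.3% and 7.34% of all genes were (median log2 ratio -0.16, against -0.07 over all genes). Of 35 in HCT116, 0 were higher and 6 lower, where 16.2% and 20.0% of all genes were, and the median of -0.27 was close to the -0.23 of all genes. The small heat shock gene CRYAB, abundant in lens and muscle, had 2 counts in control H1299 and 229 in treated H1299, a log2 ratio of 6.89 with a counting interval of 5.02 to 9.94. HSPB6, another muscle small heat shock gene, had 34 and 149 counts (2.18), and HSPA12A had 1.49. In HCT116 the lowest ratios belonged to BAG2 (-2.34), an inhibitor of the ubiquitin ligase partner of HSP70, to DNAJA4 (-1.86) and to the HSP90 cofactor PTGES3, also called p23 (-1.38, from 501 to 193 CPM). BAG2 was also among the lowest in H1299 (-0.90), where DNAJC7 had -1.15. The strictly inducible HSPA6, named here after its values were seen, had 2, 7, 0 and 5 counts in control H1299, treated H1299, control HCT116 and treated HCT116.

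Lists of mitochondrial chaperones, of the chaperonin TRiC with prefoldin, and of proteasome and ubiquitin genes had 0 or 1 gene at least 2-fold higher. Of all genes, 18.3% in H1299 and 16.2% in HCT116 were. Among genes with 1000 counts or more in the higher library, 6.36% and 6.16% were, so these counts say little. All 11 mitochondrial chaperone genes had a ratio below 1 in H1299, where 54.1% of all genes did, and none was 2-fold lower. In HCT116, 10 of 11 were below 1, where 59.4% of all genes were, and 4 were at least 2-fold lower, where 20.0% were. The median log2 ratio of the list was -0.46 in H1299 and -0.73 in HCT116, against -0.07 and -0.23 over all genes. Over genes with 1000 counts or more in the higher library the medians were -0.24 and -0.44. HSPE1, the mitochondrial HSP10, had the lowest ratio of the list in HCT116 (-2.48, from 161 to 28.8 CPM) and -0.18 in H1299. The mitochondrial HSP70 HSPA9 had -1.62 in HCT116. Of 14 genes for the cytosolic chaperonin TRiC and prefoldin, which fold actin and tubulin, 0 were at least 2-fold higher and 2 lower in each line. PFDN1 and VBP1 were the lower ones in both, at -1.04 and -1.01 in H1299 and -1.05 and -1.19 in HCT116. Of 29 proteasome and ubiquitin genes, H1299 had 0 higher and 1 lower, whereas HCT116 had 1 higher and 4 lower. For these lists, too, 7.34% of all genes in H1299 and 20.0% in HCT116 were at least 2-fold lower. The higher one was UBB, a stress-responsive polyubiquitin gene (171 to 579 CPM, log2 ratio 1.76).

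**Figure D5:**
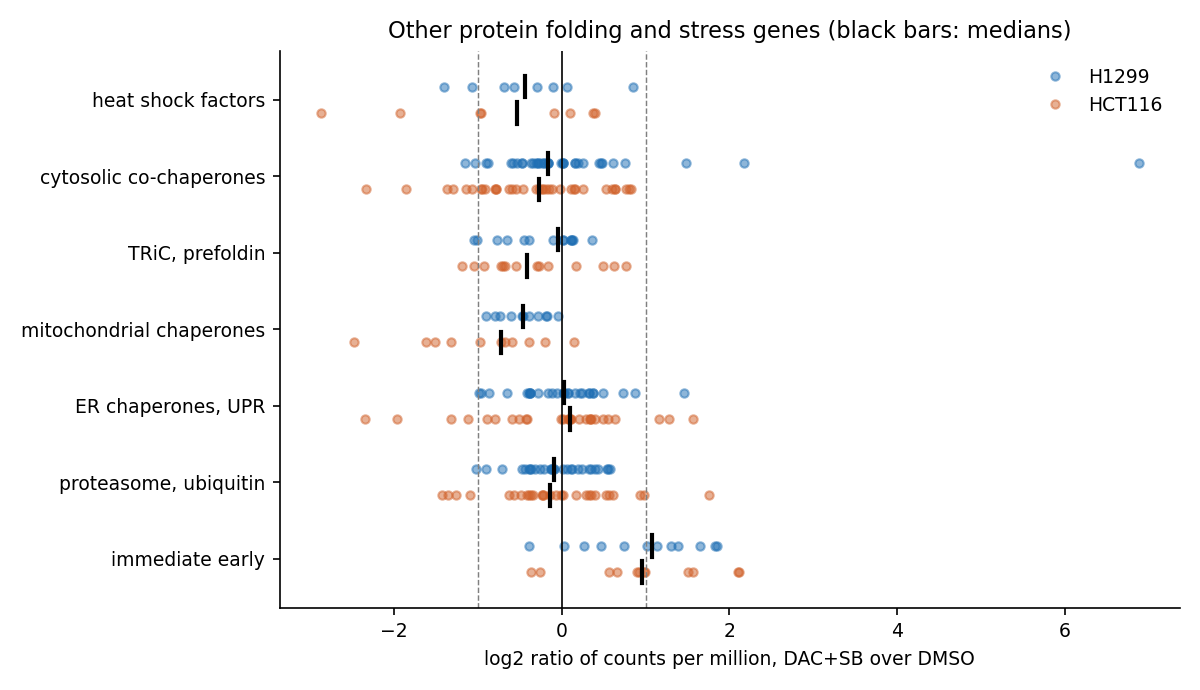
log2 ratio of CPM (DAC+SB over DMSO, horizontal axis) of each gene that reached 100 counts in 1 of the line's libraries, for 7 lists (vertical axis) in H1299 (blue) and HCT116 (orange). Black bars are medians and dashed lines a 2-fold difference. The mitochondrial chaperones have medians of -0.46 and -0.73, and CRYAB is the blue point at 6.89.

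Other stress and growth genes also differed between the libraries. Of 12 immediate early genes, 7 were at least 2-fold higher in H1299, where 18.3% of all genes were, and 4 in HCT116, where 16.2% were, with 0 lower in either. FOS went from 9.66 to 34.3 CPM in H1299 and from 46.1 to 199 in HCT116. ATF3 had log2 ratios of 1.86 and 2.10. Of 11 oxidative and metal stress genes, 3 were higher and 2 lower in each line, with MT1X at 1.53 and 1.65 and SLC7A11 at -1.22 and -3.26. Of 13 S phase genes, 7 were at least 2-fold lower in H1299 and 8 in HCT116, and of 14 G2 and M phase genes 0 and 6 were. Beside these stand 7.34% of all genes in H1299 and 20.0% in HCT116, also for the target genes. Of 8 genes for the inhibitors' targets, 1 was at least 2-fold lower in each line, DNMT1 in H1299 (-1.08) and DNMT3A in HCT116 (-1.64). The share of these states in the chaperone ratios was not tested.

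Within a library, most members were higher in cells with many G2 and M phase counts. Cells were split into quartiles by their thinned counts of the G2 and M phase list. Between the lowest and the highest quartile, DNAJB1 went from 83.3 to 201 CPM in control H1299, from 114 to 263 in treated H1299, from 107 to 271 in control HCT116 and from 246 to 447 in treated HCT116. HSPA8 went from 641 to 920, from 475 to 890, from 340 to 636 and from 250 to 659 in the same order. With counting intervals apart, 8 of 10 members were higher in the highest quartile in control H1299, where 23.1% of genes with 100 counts or more in the library were, and 36.0% of genes with 1000 or more. It was 9 of 10 in treated H1299, beside 29.9% and 49.7% of genes, 9 of 10 in control HCT116, beside 21.1% and 31.8%, and 9 of 10 in treated HCT116, beside 19.5% and 41.5%. Intervals lie apart more readily for genes with more counts. HSPB1 was lower there in 3 libraries, such as 633 against 537 in control H1299. Quartiles are not matched between libraries, and the G2 and M phase list had a median log2 ratio of -0.93 in HCT116. The highest quartile was also the deeper one before thinning, with a median of 18201.5 against 15025 counts in control HCT116 and 9186 against 8927.5 in treated HCT116.

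The genes whose counts per cell were most like those of HSPA1A, HSPA1B, DNAJB1 and HSPH1 summed were ranked among 4165 genes by the lowest Pearson r over the 4 libraries, across thinned cells of 1 library each. The first 8 were TUBB4B (0.15), ARL6IP1 (0.14), KPNA2 (0.11), MKI67 (0.11), UBE2C (0.11), CDC20 (0.10), CCNB1 (0.10) and TPX2 (0.09). Of these 8, 5 are in the G2 and M phase list, which had 14 genes among the 4165. DNAJB1 gave most of the sum in treated HCT116, with a thinned mean of 1.11 against 0.258 for HSPA1B, 0.126 for HSPA1A and 0.0290 for HSPH1. Its r with the G2 and M phase list was 0.18 to 0.21 over the 4 libraries. In control and treated HCT116 that r was only 0.03 and 0.04 for HSPA1A, the same for HSPH1, and 0.15 and 0.09 for HSPA1B. These correlations are weak, and cells of a library share its preparation. Between members, the median r over 45 pairs was 0.03 in control H1299, 0.06 in treated H1299, 0.03 in control HCT116 and 0.09 in treated HCT116. The highest pair of each library was HSPA1A with HSPA1B (0.36) in treated HCT116, HSP90AA1 with HSP90AB1 in both H1299 libraries (0.15 and 0.24) and HSPA1B with HSPA8 (0.19) in control HCT116. HSP90AA1 with HSP90AB1 came close to these in HCT116, at 0.18 in control and 0.35 in treated cells. The part of misassigned reads in the value for HSPA1A with HSPA1B was not tested.

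Levels of the members were also compared between cells with few and many TE counts, the study's readout. TE made up 0.199% of counts in control H1299, 3.09% in treated H1299, 0.319% in control HCT116 and 5.56% in treated HCT116. Cells of each library were split into quartiles by their thinned TE counts. From the lowest to the highest quartile, the median went from 3 to 11 counts in control H1299 and from 5 to 16 in control HCT116. It went from 41.5 to 169 in treated H1299 and from 77 to 325 in treated HCT116. The control quartiles thus differed by few counts. With intervals apart, 7 of 10 members were lower in the quartile of control H1299 cells with most TE counts than in the quartile with fewest, where 6.12% of genes with 100 counts or more and 10.6% of those with 1000 or more were. In control HCT116 it was 6 of 10, beside 2.79% and 5.10% of genes. HSPA8 went from 776 to 701 CPM between these quartiles in control H1299 and from 531 to 430 in control HCT116. In treated H1299, 9 of 10 members were lower in the highest quartile, where 27.1% and 49.5% of genes were. HSPA8 had 732 CPM in the lowest quartile and 490 in the highest. In treated HCT116, 6 of 10 were lower (HSPA8 559 and 340), a count near the background, since 28.4% and 57.2% of genes at these limits were lower. There 3 were higher, beside 7.61% and 7.83% of genes: HSPA1A (28.1 and 49.3), HSPA2 (27.2 and 46.4) and HSPH1 (7.27 and 12.4). Over the 4 quartiles, from fewest to most TE counts, HSPA1A had 59.0, 45.1, 36.7 and 33.0 CPM in treated H1299. In treated HCT116 it had 28.1, 28.3, 28.1 and 49.3, so there only the last quartile stood apart. In that library the 1% of cells with most counts of the gene held 34.9% of HSPA1A and 35.6% of HSPH1 counts. Counting intervals do not cover such spread between cells, and the part of these cells in the last quartile was not tested. The median depth before thinning was 10212.5 in the lowest and 7922 in the highest TE quartile of treated HCT116, and 16052.5 and 15997 in treated H1299. In the controls it was 17662 and 17063 in H1299 and 16072 and 16576 in HCT116. TE counts are part of the total that levels are divided by, and the part of this and of depth was not tested.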

How the data were processed

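Per the labels, 5′ single-cell libraries (10x Genomics, polyadenylated RNA) were made from H1299 and HCT116 cells. The authors deposited whole-number counts per feature and cell, in 1 table of genes and 1 of TE. CASAVA, STAR and GRCh38 (hg38) are named in the submitters' processing notes. Annotation, UMI collapsing and the cell filter were not given in the sources used here. Cells were assigned to libraries by the name each carries.

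Counts of a symbol were summed over its 1 to 3 features per library, over names of 1 gene, and divided by gene and TE counts (CPM). Joined names (2419) entered an alternative. Intervals are 95%: exact Poisson for levels, conditional binomial for ratios, Clopper-Pearson for shares, and a normal approximation of log Poisson counts for line differences. They cover counting error only. Each cell was thinned to 3300 counts for values per cell, and no doublet caller was run. Members and gene lists were chosen with earlier results of these data known. Named from each list were the 3 highest and 3 lowest log2 ratios per line, of which the text gives a part, HSF1, HSF2 and the 8 genes most like the inducible members. Ratios, intervals and correlations were tested on simulated data. Alternatives were other denominators, TMM factors (edgeR 4.0.16), count limits, folds and sets of cells or features. Leaving out shared barcodes, the top 1% of cells or numbered features was chosen after seeing the data. Python 3.11.15, numpy 2.4.6, pandas 2.3.3, scipy 1.17.1 and matplotlib 3.10.9 were used.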

Additional observations from a re-analysis of the deposited data

Results flagged for a closer look

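The log2 ratio of HSPA1A (DAC+SB over DMSO) was 3.95 higher in HCT116 than in H1299. The lines' ratios had opposite signs, 3.66 and -0.29. The log2 ratio of HSPB1 also had opposite signs, -1.49 in HCT116 and 0.17 in H1299, a difference of -1.66. Neither difference between the lines was tested, because each group was 1 library.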

How the results depend on the processing

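Of 240 log2 ratios of members under alternatives, 230 kept their sign. The exceptions in H1299 were HSP90AB1 with the median gene set to 0 (0.0075) and HSPB1 without numbered features (-0.15). In HCT116, HSPA8 was 0.031 per gene counts alone, 0.18 with the median gene set to 0 and 0.065 as a mean over cells. HSP90AB1 was 0.034 with the median gene set to 0, and HSPA1B was 0.026 as a mean over cells. HSP90AA1 was -0.019 without the 5% deepest cells, -0.043 as a mean over cells and -0.45 without numbered features. Dividing by gene counts alone or setting the median gene to 0 shifts all genes of a line equally. Why the other signs turned was not tested. Under the 14 alternatives that kept the 2-fold limit, 1 member was higher in H1299 and 2 or 3 in HCT116, and 0 and 2 were lower. A 1.5-fold limit gave 1 higher and 0 lower in H1299, and 3 and 2 in HCT116. A 4-fold limit gave 1 and 0 in H1299, and 2 and 0 in HCT116, fewer by its own construction. HSPA1A in HCT116 ranged from 3.26 to 3.96 and HSPA2 from 3.45 to 4.43. The 3.26 came from leaving out cells chosen by their HSPA1A and HSPA1B counts. Cells sharing a barcode with another library changed no sign when left out. No paired analysis was run, since each comparison within a line set 1 library against 1 and came from no test. A fit over both lines with the line as a term was not run. Counting error is small at this depth, and differences between cultures were not measured.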

Other observations

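Counts of 9 of 10 members in H1299, and of all 10 in HCT116, lay less often in the feature without a number in the DAC+SB library than in the DMSO library. Of all genes with a numbered feature and 100 counts or more in both libraries, 62.3% in H1299 and 70.4% in HCT116 did the same. For HSP90AA1 that feature held 57.0% of counts in control H1299, 47.7% in treated H1299, 51.5% in control HCT116 and 36.9% in treated HCT116. For HSPB1 it held 67.9%, 54.3%, 62.9% and 54.3% in the same order, and for HSPA2 66.0%, 58.4%, 71.7% and 44.4%. HSPA1A in H1299 was the exception, with 42.2% and 45.9%. What the numbers stand for was not given in the sources used here.

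Cells with many mitochondrially encoded counts had less HSP90AA1, and many other genes were lower there too. Between the lowest and the highest quartile of these counts, HSP90AA1 went from 2902 to 1881 CPM in control H1299, from 4311 to 2318 in treated H1299, from 1920 to 1374 in control HCT116 and from 2142 to 1177 in treated HCT116. HSP90AB1 was also lower in the highest quartile, from 936 to 796, from 840.0 to 763, from 1471 to 1002 and from 1263 to 909.9 CPM in the same order. DNAJB1 went from 137 to 138, from 194 to 178, from 178 to 176 and from 338 to 362. Of genes with 1000 counts or more in the library, 30.8% in control H1299, 40.8% in treated H1299, 43.7% in control HCT116 and 55.8% in treated HCT116 were lower in the highest quartile with counting intervals apart. Mitochondrial counts are part of the total that these levels are divided by. The lowest quartile was the deeper one in control H1299, with a median of 19013 counts per cell against 16127. It was also deeper in treated H1299, with 20245.5 against 12867, and in treated HCT116, with 11647.5 against 5529. In control HCT116 the median was 16030 in the lowest quartile and 16258.5 in quartile 3, and that of the highest quartile is not given here. The part of the total and of depth in these values was not tested.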
